A study of Homo sapiens with 8 samples.

Results

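The replication-dependent histone genes of human chromosome 6 (the HIST1 genes) lie in 3 dense clusters. They were taken here as 3 windows of hg19, chr6:26015000-26290000 (275 kb), chr6:27090000-27120000 (30 kb) and chr6:27770000-27865000 (95 kb). A peak of any of 7 deposited lists was counted as a member where it overlapped a window by at least 1 bp. The windows held 182 of the 159806 peaks. Peaks that overlapped each other were merged into regions, and 87 of the 74123 merged regions lay in the windows. The comparison area was the other 3600 kb of chr6:25000000-29000000, with 300 peaks in 127 regions. The rule uses position alone and no measured value.

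The peaks come from chromatin immunoprecipitation and sequencing (ChIP-seq) in a single human cell line, 697, which was established from a pre-B leukaemia and was grown in suspension with serum; the labels name no treatment. There was 1 library for each of the antibodies AIOLOS, IKAROS, MTA2, Mi2, HDAC2, OCAB and OCT2, and 1 input library without antibody. No antibody had a second library, so no difference below was set against a spread between libraries, and the intervals cover counting error alone. Recovered depth ran from 10.9 M tags (HDAC2) to 23.4 M (IKAROS), and the HDAC2 list reaches p-values over input of 9.5e-05, the other lists at most 8.92e-10. HDAC2 reads also passed through an older version of the base-calling software. Each list is therefore read against its own peaks elsewhere.

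Histone genes of this kind are switched on together as cells copy their DNA, and their short promoters are built from a few shared elements. H2B promoters, and the H2A promoters that often lie back to back with them, carry an octamer element, the sequence bound by the POU-domain factors OCT1 and OCT2. OCAB is a B-cell coactivator that contacts DNA-bound OCT1 or OCT2. IKAROS and AIOLOS are related zinc-finger factors of lymphocytes. MTA2, HDAC2 and Mi2 are subunits of NuRD, a complex with histone deacetylase and nucleosome remodelling activity.

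The promoters of this gene family show why OCT2 and OCAB are described first. RefSeq (GRCh38.p14) lists 53 protein-coding HIST1 genes in 3 dense runs of 32, 5 and 16 genes, and 48 of them matched an entry in the promoter table. The 300 bases of each entry (250 before the start and 50 after) were searched on both strands for the octamer ATTTGCAT, for TATAAA and for CCAAT. No octamer overlapped a CCAAT. The sequences below are the 150 bases before the start of 6 genes, 5′ to 3′ on the gene's strand, with these 3 motifs in capitals.
H2BC3: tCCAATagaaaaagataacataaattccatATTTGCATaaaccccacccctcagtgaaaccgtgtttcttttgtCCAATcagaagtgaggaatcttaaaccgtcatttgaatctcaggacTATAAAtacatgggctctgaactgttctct
H2BC4: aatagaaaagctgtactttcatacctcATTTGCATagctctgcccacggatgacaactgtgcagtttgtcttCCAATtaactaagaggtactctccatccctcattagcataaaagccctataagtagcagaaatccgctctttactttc
H2AC4: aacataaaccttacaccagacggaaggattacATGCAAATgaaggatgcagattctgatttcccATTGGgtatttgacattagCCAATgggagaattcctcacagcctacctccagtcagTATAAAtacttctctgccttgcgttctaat
H1-1: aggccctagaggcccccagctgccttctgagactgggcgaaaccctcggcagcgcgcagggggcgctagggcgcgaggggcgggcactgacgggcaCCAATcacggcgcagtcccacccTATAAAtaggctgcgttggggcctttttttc
H3C1: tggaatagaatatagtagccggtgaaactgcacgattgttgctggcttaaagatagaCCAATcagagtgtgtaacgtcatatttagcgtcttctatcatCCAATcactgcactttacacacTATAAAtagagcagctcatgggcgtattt
H4C2: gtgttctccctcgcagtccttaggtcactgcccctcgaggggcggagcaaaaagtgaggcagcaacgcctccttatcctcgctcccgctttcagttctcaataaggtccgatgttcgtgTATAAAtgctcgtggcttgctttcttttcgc

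H2BC3 (GRCh38 chr6:26043714-26043863, minus strand), H2BC4 (chr6:26123927-26124076, minus strand) and H2AC4 (chr6:26033619-26033768, minus strand) hold the octamer. In H2BC3 it begins 120 bases before the start, in H2BC4 123 bases before, and in H2AC4 it stands in the reverse complement, 118 bases before. The promoters of the linker histone gene H1-1 (chr6:26017788-26017937, minus strand), of H3C1 (chr6:26020301-26020450, plus strand) and of H4C2 (chr6:26027284-26027433, minus strand) hold TATAAA, and no octamer.

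The exact octamer was found mostly in the H2A and H2B families. It was present in 11 of 14 H2B promoters and 8 of 10 H2A promoters, but in 0 of 6 H1, 0 of 10 H4 and 1 of 8 H3 promoters. The H3 gene was H3C4, for which the table also gives the promoter window of H2AC7, with the same sequence. Among all 27305 genes of the promoter table, 2.19% held the octamer. With at most 1 mismatch allowed, the counts were 12 of 14 for H2B, 8 of 10 for H2A, 0 of 6 for H1, 3 of 8 for H3 and 2 of 10 for H4, and the share of all genes rose to 20.2%. The H2A and H2B genes without the exact octamer were H2BC5, H2AC13, H2AC15, H2BC13 and H2BC15. In H2B promoters the octamer read as spelled in 11 of 12 instances, 45 to 123 bases before the start, the exception being a reverse complement in H2BC17. H2BC12 has 2 entries in the promoter table and was counted once for each, at 46 and 49 bases. In H2A promoters 7 of 8 instances were reverse complements. TATAAA was found in 66.7% of the 48 promoters and 14.0% of all genes, and CCAAT in 85.4% and 39.7%. The peak lists are on hg19 and the gene table on GRCh38, and peaks were therefore not joined to genes or promoters. A match of letters is not evidence of binding.

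OCT2 and OCAB peaks were concentrated in the windows. Of the 41 OCT2 peaks in the 4 Mb, 31 lay in the windows, which make up 400 kb of it, and of the 22 OCAB peaks 19 did. OCT2 had 7.75 peaks per 100 kb in the windows (95% Poisson interval 5.27 to 11.0), 0.278 in the rest of the 4 Mb and 0.275 in the rest of the genome. The OCT2 density was 27.9 times that of the surrounding 4 Mb (13.3 to 63.8) and 28.2 times that of the genome (19.1 to 40.03). OCAB had 4.75 peaks per 100 kb in the windows (2.86 to 7.42) against 0.0833 in the rest of the 4 Mb, where it had 3 peaks, a ratio of 57 (16.8 to 301). By window, OCT2 reached 6.55 peaks per 100 kb in the first, 16.7 in the second and 8.42 in the third, and OCAB 5.09, 6.67 and 3.16. Against the genome, at 0.150 peaks per 100 kb, the OCAB ratio was 31.6 (19.03 to 49.5).

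The other lists were denser in the windows too, by smaller ratios. AIOLOS had 50 peaks in the windows and 82 in the rest, 5.49 times the density (3.78 to 7.90), and IKAROS had 42 and 98, 3.86 times (2.62 to 5.59). Among the NuRD subunits, MTA2 had 20 and 48 peaks, 3.75 times the density (2.11 to 6.44). HDAC2 had 15 and 37, 3.65 times (1.86 to 6.81), and 9 times (3.17 to 25.6) once its peaks were held to a p-value over input of 1e-10. For Mi2, with 5 peaks against 22, the ratio of 2.05 had an interval that includes 1 (0.605 to 5.54). The intervals of OCT2 and OCAB lie above those of the other 5 lists as deposited, but peaks within a library are not replicates and the difference between lists was not tested.

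**Figure D1:**
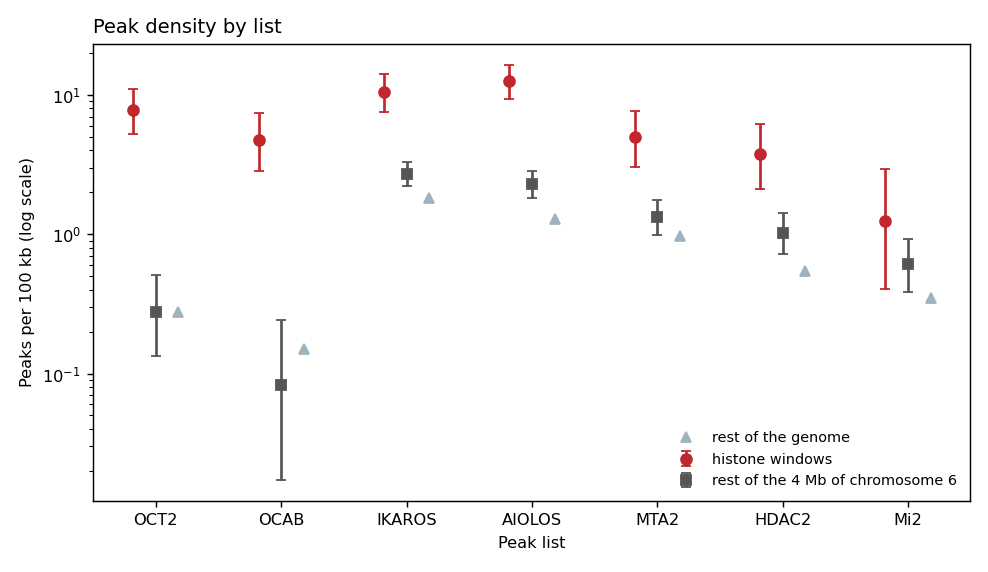
Peaks per 100 kb (log scale) for each list, in the histone windows (circles), the rest of the 4 Mb (squares) and the rest of the genome (triangles). Error bars are 95% Poisson intervals of the peak counts; OCT2 and OCAB stand at 7.75 and 4.75 in the windows and below 0.3 outside them.

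Such density was rare elsewhere. The genome was cut into 117780 bins of 25 kb, of which 16 had their middle in a window. At least 2 regions with OCT2 fell in 9 of the 16, against 0.728% of all bins. At least 4 fell in 2 of the 16, and 7 bins of the genome (0.00594%) reached that number. At least 1 region with OCAB fell in 12 of the 16 bins, against 3.51% of all bins, and at least 3 regions of any kind in 13 of 16, against 7.84%. The fullest of these bins, chr6:27100001-27125000, held 10 regions, 4 of them with OCT2, 8 with AIOLOS and 2 with OCAB. Bins at the edge of a window also count regions beyond it. In this bin the regions at chr6:27122838-27123246 and chr6:27123323-27123579, the latter with AIOLOS, belong to the rest of the 4 Mb.

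OCT2 and OCAB peaks in the windows were also high for their lists. Height is the number of tags in a peak scaled to a library of 10 M. The 31 OCT2 heights ran from 14.2 to 93.3 with a median of 39.8 (order-statistic interval 33.3 to 45.3), whereas the 10 in the rest of the 4 Mb ran from 7.64 to 19.1 with a median of 13.6. All but 1 of the 31 exceeded the highest of the rest. Of the 31, 25 lay above the 90th percentile of the OCT2 list (80.6%, Wilson interval 63.7 to 90.8), against 10.2% of all OCT2 peaks. The 19 OCAB heights ran from 9.69 to 88.9 with a median of 42.7, and the 3 in the rest were 7.98, 20.5 and 21.1. Above the 90th percentile of the OCAB list lay 9 of 19 (47.4%, 27.3 to 68.3), against 10% of all OCAB peaks. Every listed peak stood at least 4-fold over its surrounding region. The part of this minimum in these height contrasts was not tested.

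The highest OCT2 peak of the windows, at chr6:26123281-26123555, had a height of 93.3 from 172 tags, 66.5-fold over input, and ranked 44 among 8129. The next, at chr6:26157604-26157878, had a height of 84.0 and stood 89.3-fold over input. In the third window the highest was 70.9, at chr6:27833757-27834031, and in the second 42.6, at chr6:27113710-27113984. Medians were 38.2 in the first window, 32.2 in the second and 44.8 in the third, so OCT2 was high in each of the 3 clusters and not in a single place. The lowest, of height 14.2 from 26 tags, lay at chr6:26021028-26021302, close to the median of the OCT2 list (14.2). Tags of the input in the OCT2 peaks, scaled to the OCT2 library, had a median of 4.3 in the windows and 2.6 in the whole list, and no OCT2 peak of the windows stood less than 7.12-fold over input.

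The highest OCAB peak of the windows lay in the second, at chr6:27100443-27100709, with a height of 88.9 from 156 tags, 31.5-fold over input, at rank 123 of 4440. In the first window the highest were 83.2, at chr6:26124132-26124398, 66.1, at chr6:26272976-26273242, and 61, at chr6:26043905-26044171. The 3 OCAB peaks of the third window had heights of 56.4, 47.9 and 42.7. The lowest OCAB peaks, of heights 12.0 and 9.69, lay at chr6:26224140-26224406 and chr6:26233291-26233557. Both lay in regions with IKAROS, AIOLOS and HDAC2. OCAB was thus found in all 3 clusters, with its widest range of heights in the first.

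Heights of the other lists differed less from their surroundings. The median IKAROS height was 39.3 in the windows (33.4 to 50.9) and 23.1 in the rest (19.2 to 31.2), and 5 of 42 peaks lay above the 90th percentile of the list, against 9.95% of all. The median AIOLOS height was 30.8 (27.4 to 38.6) and 25.8 (19.3 to 29.9), and 4 of 50 lay above that percentile, against 10.1%. Among the 4000 highest peaks of each list the AIOLOS ratio of medians turned from 1.19 to 0.893, and that of IKAROS went from 1.70 to 1.05.

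MTA2 and Mi2 had ordinary heights in the windows, and the HDAC2 median was somewhat higher there than in the rest. The median MTA2 height was 16.45 (14.0 to 19.3) against 15.75 in the rest (12.7 to 18.8), and 1 of 20 peaks exceeded the 90th percentile, against 10% of all. That peak, at chr6:26172133-26172383, had a height of 71.8 and lay with an AIOLOS peak of height 18.1 and no other protein. The median HDAC2 height was 17.4 (13.7 to 21.1) against 13.7 (11.9 to 15.6), with 0 of 15 above the percentile, against 10.5%. The median percentile of HDAC2 peaks in their list was 68.1 in the windows and 46.1 in the rest. The HDAC2 ratio of medians was 1.27, and 1.04 with peaks held to a p-value over input of 1e-10. The 5 Mi2 heights were 11.3, 13.0, 15.1, 16.2 and 22.2, with 0 above the percentile, against 10.1%, and the Mi2 median in the rest was 14.85. In each of these lists the highest peak of the rest exceeded that of the windows.

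**Figure D2:**
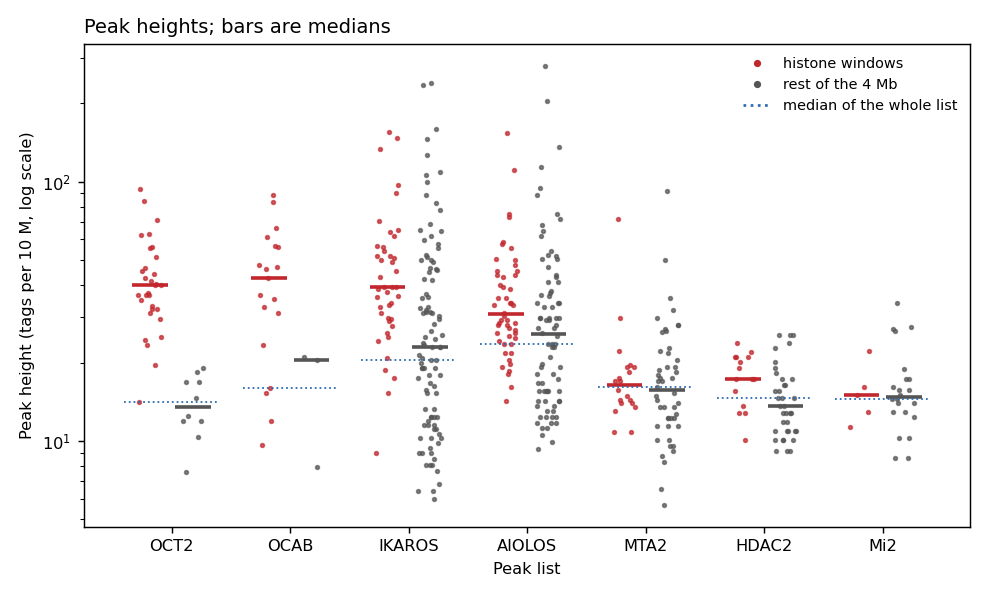
Height of every peak (tags per 10 M, log scale) in the histone windows (red) and in the rest of the 4 Mb (grey), with medians as bars and the median of the whole list as a dotted line. OCT2 and OCAB medians in the windows are 39.8 and 42.7, above 13.6 and 20.5 in the rest; MTA2 and Mi2 medians nearly coincide.

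The makeup of the merged regions differed from that of regions elsewhere. OCT2 was present in 31 of the 87 window regions (35.6%, 26.4 to 46.1), against 7.87% of the 127 in the rest of the 4 Mb and 11% of all merged regions. OCAB was present in 19 (21.8%, 14.5 to 31.6), against 2.36% and 5.99%. The differences from the rest of the 4 Mb were 27.8 percentage points for OCT2 (Newcombe interval 16.7 to 38.8) and 19.5 for OCAB (10.9 to 29.4).

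IKAROS was present in 48.3% of window regions (38.1 to 58.6), against 77.2% in the rest and 72.8% of all, a difference from the rest of -28.9 points (-41.0 to -15.8). AIOLOS was present in 57.5% (47.0 to 67.3), against 63.8% and 51.4%, and the interval of its difference includes 0. IKAROS peaks were denser in the windows all the same, and merged regions of any kind stood at 21.75 per 100 kb there against 3.53 in the rest. MTA2 was present in 23% (15.4 to 32.9), against 37.8% and 38.8%, and Mi2 in 5.75% (2.48 to 12.8), against 17.3% and 13.9%. HDAC2 was present in 17.2% (10.7 to 26.5), against 29.1% and 21.8%, but its difference of -11.9 points became 3.09 at the common p-value limit and 1.94 at 8-fold over input.

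Regions with many proteins were few in the windows, as they were elsewhere. At least 4 lists met in 11 of 87 (12.6%, 7.21 to 21.2), against 22.8% in the rest and 16.8% of all merged regions. The interval of the difference from the rest includes 0, and so does that from the rest of the genome (-4.15 points, -9.59 to 4.45). No window region held 6 or 7 lists, whereas 5 regions in the rest held 6. In the rest of the genome 2.32% of regions held 6 lists and 0.651% held 7. MTA2, HDAC2 and Mi2 met in 0 of the 87 (upper Wilson limit 4.23%), in 8 of the 127 in the rest and in 3.92% of regions in the rest of the genome. The commonest kinds in the windows were IKAROS with AIOLOS (13 regions), OCAB alone (10 of the 19 OCAB regions, 52.6%, against 27.1% elsewhere), OCT2 alone (8), and OCT2 with IKAROS and AIOLOS (7). OCT2 with AIOLOS and no other list came to 5 regions, 5.75% of those in the windows and 0.0581% of those in the rest of the genome.

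The regions with 5 lists, 3 in the first window and 2 in the third, joined IKAROS, AIOLOS, MTA2 and HDAC2 with OCT2 or OCAB. At chr6:26026543-26027215 the OCT2 height was 56.2, the IKAROS height 48.8, the AIOLOS height 29.3, the HDAC2 height 22.0 and the MTA2 height 14.9. At chr6:26020843-26021556 the order was otherwise, with IKAROS at 64.2, AIOLOS at 47.9, MTA2 at 19.3, OCT2 at 14.2 and HDAC2 at 13.7. At chr6:26224140-26224719 OCAB stood in place of OCT2. Its OCAB height was 12.0, beside 146.7 for IKAROS, 110.8 for AIOLOS, 17.5 for MTA2 and 17.4 for HDAC2. In the third window, chr6:27841011-27841588 had heights of 133 for IKAROS, 75.3 for AIOLOS, 44.2 for OCT2, 19.2 for HDAC2 and 18.4 for MTA2, and chr6:27774454-27775192 had 38.6 for AIOLOS, 34.2 for IKAROS, 31.1 for OCT2, 17.4 for HDAC2 and 17.1 for MTA2. Within their own lists the HDAC2 height of 22.0 was at the 83.4th percentile and the OCT2 height of 14.2 at the 50.3rd, so heights are not ranked between proteins here.

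OCT2 in the windows lay apart from NuRD more often than OCT2 elsewhere. Of the 31 OCT2 peaks in the windows, 5 overlapped an MTA2 peak (16.1%, 7.09 to 32.6), against 71.1% of OCT2 peaks in the rest of the genome (70.1 to 72.0) and 9 of the 10 in the rest of the 4 Mb. HDAC2 overlapped 4 of the 31 (12.9%, 5.13 to 28.9), against 54.2%. Any of the 3 subunits was present in 9 of the 31 OCT2 regions (29%, 16.1 to 46.6), in 10 of 10 in the rest of the 4 Mb and in 79.4% elsewhere. Over all 87 window regions, any subunit was present in 31 (35.6%, 26.4 to 46.1), against 53.4% elsewhere. MTA2 was present in 23% of all window regions and HDAC2 in 17.2%. The shares for OCT2 in the windows lie near these. Among the 39 window regions without OCT2 and OCAB, any subunit was present in 46.2% (31.6 to 61.4), against 50.7% elsewhere. Allowing 500 bp between centres raised the MTA2 share of OCT2 peaks in the windows to 35.5%. The difference from the rest of the genome was then -40.6 points (-55.0 to -23.0), and -54.9 (-64.0 to -38.4) by overlap. IKAROS or AIOLOS was present in 21 of the 31 (67.7%, 50.1 to 81.4), against 81.1% elsewhere, and in 14 of the 31 it was present without NuRD (45.2%, 29.2 to 62.2), against 9.09% elsewhere. OCT2 alone accounted for 8 of the 31 (25.8%, 13.7 to 43.2), against 10.0% elsewhere.

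Peaks of the windows stood less far above their surroundings than peaks of like height elsewhere in each of the 7 lists. The deposited fold over the surrounding region was at least 4 for every peak in every list. For OCT2 it had a median of 7.04 in the windows, against 16.1 among 477 OCT2 peaks of like height elsewhere (those between the quartiles of the window heights). For OCAB the medians were 10.4 and 18.9, although the OCAB median of the windows was level with that of the rest of the 4 Mb (10.5) and of the whole list (9.84). The medians were 6.71 and 15.0 for IKAROS, 6.42 and 14.7 for AIOLOS, 5.06 and 8.09 for MTA2, 4.84 and 7.19 for HDAC2 and 4.28 and 5.99 for Mi2, so window peaks of the NuRD subunits stood close to that minimum. The part of that minimum in the heights and NuRD shares above was not tested. The focus ratio, the share of tags placed as a narrow peak would place them, was also lower for OCT2 in the windows, with a median of 0.642 against 0.807 among peaks of like height, while for OCAB it was 0.808 against 0.833. Histone genes of a family are near copies of each other, and how reads matching several copies were placed is not given in the sources used here; its part in these heights was not tested.

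Most OCAB peaks of the windows had an OCT2 peak nearby, and few overlapped it. Of the 19 OCAB peaks, 2 overlapped an OCT2 peak (10.5%, 2.94 to 31.4), against 41.4% of OCAB peaks in the rest of the genome (39.9 to 42.8). The difference of -30.8 points (-38.6 to -9.93) became -20.3 (-28.4 to 1.47) at 8-fold over input, -20.4 (-28.1 to 0.541) among the 4000 highest peaks and -17.0 (-31.5 to 5.57) with centres within 500 bp, and in those 3 settings its interval included 0. Within 1 kb between centres, 15 of the 19 had an OCT2 peak (78.9%, 56.7 to 91.5), against 44.7% elsewhere (43.2 to 46.2). Peaks that lay within 1 kb without overlapping came to 13 of the 19 (68.4%) in the windows and to 3.33% in the rest of the genome. This was not particular to that pair. Of the OCAB peaks in the windows, 42.1% lay within 1 kb of an IKAROS peak without overlap, against 13.5% elsewhere, and 42.1% so of an AIOLOS peak, against 12.1%. Of the HDAC2 peaks 46.7% lay so beside OCT2, against 3.99%, and of the IKAROS peaks 28.6%, against 2.06%. An AIOLOS centre was within 1 kb of 73.7% of the OCAB peaks in the windows (51.2 to 88.2), against 65.2% elsewhere, a value inside that interval. For OCT2 the shares were 78.9% and 44.7%. The nearest OCT2 centre was 20 and 113 bp away for the overlapping OCAB peaks and 298 to 8311 bp for the other 17. The median over all 19 was 785 bp, against 6155 bp in the rest of the genome.

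**Figure D3:**
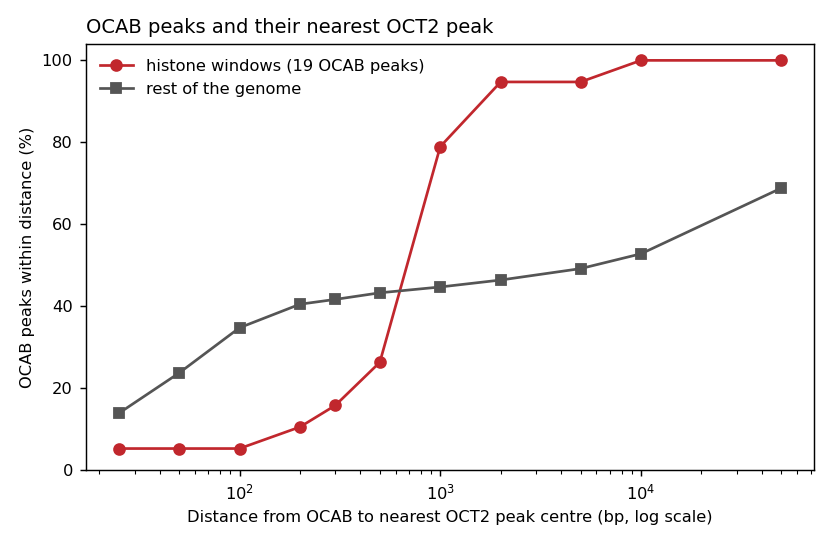
Share of OCAB peaks (%) whose nearest OCT2 peak centre lies within a given distance (bp, log scale), in the histone windows (circles) and the rest of the genome (squares). In the windows the share climbs from 26.3% at 500 bp to 78.9% at 1000 bp, while elsewhere it is already 40.5% at 200 bp and 44.7% at 1000 bp.

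Single places show the arrangement. In the second window the highest OCAB peak, of height 88.9, had an AIOLOS peak of height 26.1 in the same region, and its nearest OCT2 peak, of height 39.8 at chr6:27099665-27099939, was 774 bp away. In the first window the OCAB peak of height 66.1 at chr6:26272976-26273242 was alone in its region, with an OCT2 peak of height 25.1 at 733 bp. Both kinds of arrangement stood side by side in 1 neighbourhood. The highest OCT2 peak (93.3) shared a region with an OCAB peak of height 55.8, 113 bp from centre to centre, together with IKAROS at 37.6 and AIOLOS at 34.2. The other OCAB peak there, of height 83.2, was alone 847 bp from that OCT2 centre. The other overlap lay at chr6:26157499-26157894, where OCT2 had a height of 84.0, OCAB 16.0, IKAROS 155.7 and AIOLOS 154.4. These were the highest IKAROS and AIOLOS peaks of the windows.

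**Figure D4:**
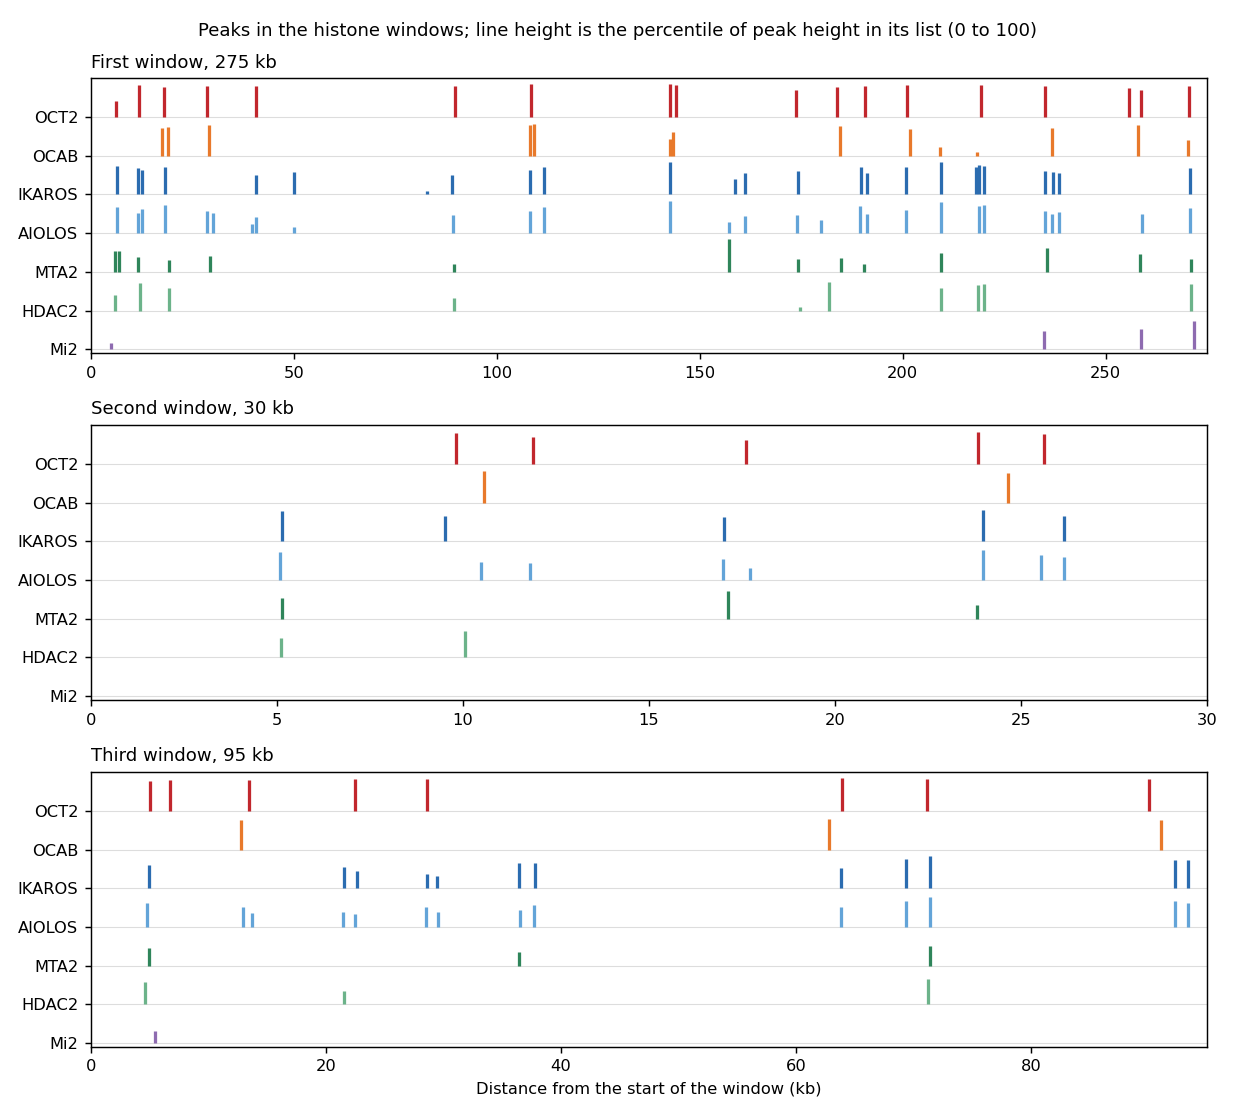
Position of every member peak in the 3 windows (kb from the start of the window), 1 row per list; the length of a line is the percentile of the peak's height in its own list. Of the 31 OCT2 lines, 25 exceed the 90th percentile, and 15 of the 19 OCAB lines stand within 1 kb of an OCT2 line.

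Regions lay closer together in the windows than around them. The median gap between regions was 702 bp in the first window, 525 bp in the second and 975 bp in the third. In the rest of the 4 Mb it was 10858 bp. Joining regions less than 2 kb apart gave 35 neighbourhoods in the windows, with a mean of 2.49 regions, against 1.35 in the rest of the 4 Mb and 1.28 in the rest of the genome. The higher mean was not set apart from the higher density of regions in the windows. OCT2 was present in 27 of the 35 and OCAB in 16, against 7743 and 4337 of 58048 in the rest of the genome. Of the 16 neighbourhoods with OCAB, 15 held OCT2 (93.8%, 71.7 to 98.9), against 46.9% elsewhere (45.4 to 48.4). Since most window neighbourhoods held OCT2 in any case, this contrast does not measure closer pairing of OCAB with OCT2. At this scale all 7 proteins met at chr6:26285188-26287020, over 1832 bp, where no merged region held more than 3. The longest empty stretch of the first window ran 32460 bp from chr6:26065192 to 26097652, and that of the third 24757 bp from chr6:27807928 to 27832685. In the rest of the 4 Mb the longest ran 374716 bp.

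IKAROS and AIOLOS overlapped as a pair. Of the 42 IKAROS peaks, 37 overlapped an AIOLOS peak (88.1%, 75 to 94.8), against 60.6% in the rest of the genome and 68.4% in the rest of the 4 Mb. Of the 50 AIOLOS peaks, 37 overlapped IKAROS (74%, 60.4 to 84.1), against 85.9% elsewhere. OCT2 overlapped 20 of the 50 AIOLOS peaks (40%, 27.6 to 53.8), against 14.8% elsewhere, and 14 of the 42 IKAROS peaks (33.3%, 21.01 to 48.4), against 11.5%. These shares lie near the 35.6% of all window regions that held OCT2. Read from the OCT2 side the direction turned: IKAROS overlapped 45.2% of the OCT2 peaks in the windows (29.2 to 62.2), against 76.6% in the rest of the genome and 9 of 10 in the rest of the 4 Mb. AIOLOS overlapped 64.5% of them (46.9 to 78.9), against 69.7%, a value inside that interval. MTA2 peaks overlapped OCT2 in 5 of 20 (25%, 11.2 to 46.9), against 20.02%, but 14 of the 20 had an OCT2 centre within 1 kb (70%, 48.1 to 85.5), against 23.2%.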

How the data were processed

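ChIP-seq of 697 cells was analysed from 7 deposited peak lists on hg19, 1 library each, and input enters through their control columns. Per the file headers HDAC2 was called against an input stored with its own library; whether this is the input of the other lists is not stated, so HDAC2 folds and p-values over input may rest on another control. The submitters' processing notes name Bowtie2 2.3.2.2, HOMER 4.9.1 and CASAVA, in version 1.4 for the HDAC2 library and 1.8.2 for all others. Per the file headers, HDAC2 peaks needed 4-fold over input and over the surrounding 10 kb at a p-value of 0.0001; for the other 6, no setting is given in the sources used here. Height is the signal the authors deposited (tags per 10 M). Tag numbers are deposited as whole counts, except for IKAROS and MTA2, where they are scaled to the input. The fold columns are ratios, and the p-value columns Poisson p-values, as the authors deposited them. The focus ratio is a deposited fraction, and the deposited peak score was not used. Peak values are the authors' throughout. Depth was recovered from the step between heights.

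Densities have exact Poisson or conditional binomial intervals, shares Wilson intervals, and medians order-statistic intervals, all at 95% where n allows (for the 5 Mi2 peaks the range, with 93.8% coverage). The rest of the genome spans 2944 Mb between the outermost peaks of chromosomes 1 to 22 and X. No test was run, since each group is 1 library. Merging and the interval of the density ratio were tested on simulated data. The simulated sites lay too far apart to touch, so the merging of close neighbours was not tested. The other kinds of interval were not tested either. PCR duplicates cannot be told from independent molecules here.

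Regions with at least 5 lists and the highest peak of each list were named; promoters printed were the first in table order (for H2B, the first 2 with the octamer, and for H2A the first neighbour of one of these). The alternatives changed the fold, p-value limit, list length, placement, merging, comparison area and windows; 1 mismatch in the octamer was also allowed; others, chosen after seeing the data, changed the partner distance, the gap and the HDAC2 list. The members and lists were chosen with earlier results of these data known, and the comparisons of partner distance, neighbourhoods and bins were added after the peaks were seen. Python 3.11.15, numpy 2.4.6, pandas 2.3.3, scipy 1.17.1 and matplotlib 3.10.9 were used.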

Additional observations from a re-analysis of the deposited data

How the results depend on the processing

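With 35 results and 13 alternative settings, 211 of 234 values lay inside the counting interval of the reported value. Part of this count was fixed in advance. The limit of 1e-10 removed no peak of OCAB, AIOLOS, MTA2 or Mi2, so their densities and heights could not change. Cutting peaks to a shorter width leaves their heights as they are. The count is therefore no measure of how firm the results are. No paired analysis was possible because each antibody had 1 library. With the 4000 highest peaks of each list, the ratio of median heights, windows over rest, was 2.36 for OCT2, 1.05 for IKAROS, 0.893 for AIOLOS, 1.68 for MTA2 and 0.887 for HDAC2; the share of regions differed by -23.4 points for AIOLOS and -27.1 for Mi2; densities differed 9-fold for HDAC2 and 18.7-fold for merged regions; and 0% of OCT2 window peaks overlapped MTA2. Such lists leave out low peaks by construction, and the MTA2 height ratio rests on 1 window peak, of height 71.8. The overlap of OCT2 with MTA2 in these lists differed from the rest of the genome by -40.6 points (-42.1 to -29.5). At 8-fold over input the OCAB height ratio was 3.12, the HDAC2 density ratio 8.1 and the HDAC2 share difference 1.94 points. At that setting OCT2 window peaks overlapped MTA2 at 6.67% and HDAC2 at 3.33%. The differences from the rest of the genome were -58.5 points for MTA2 and -35.2 for HDAC2. Of the OCAB neighbourhoods in the windows, 100% held OCT2, and the share elsewhere was not taken at that setting. At the common limit of 1e-10, HDAC2 had a density ratio of 9 and a share difference of 3.09 points. Against the rest of the genome the density ratio was 5.74 for IKAROS, 9.68 for AIOLOS, 6.87 for HDAC2 and 8.66 for merged regions. With centres within 500 bp, 35.5% of OCT2 window peaks lay with MTA2, a difference of -40.6 points from the rest of the genome. With 1 mismatch allowed, the octamer share was 37.5% for H3 and 20% for H4 promoters. The cause of these shifts was not tested otherwise. With 3 OCAB peaks in the rest of the 4 Mb, the size of the OCAB density ratio is poorly fixed.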
